A study of Mus musculus with 5 samples.

Results

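The translesion DNA polymerase genes and *Rad18* were followed in pro-B cells with and without *Mef2c*. They are *Polh*, *Polk*, *Poli*, *Rev1*, *Rev3l*, *Mad2l2*, *Polq*, *Poln* and *Rad18*, a list chosen with earlier results of these data known. Their probe sets (groups of short DNA probes that measure a transcript together) were taken by gene symbol. They are all those in the deposited table annotated to 1 of these 9 genes. Each gene had 1 probe set there, which gave 9 of 23809 probe sets tested. Only 284 of 17323 genes in that table had more than 1 probe set, and how its probe sets were selected is not given. Other probe sets of a gene on the array may therefore be missing from it. A gene is called measured below when it is present in that table. RNA of B220+IgM-CD43+CD24+ pro-B cells, sorted by FACS from the marrow of mice aged 9 months, was hybridised to 5 Affymetrix arrays. Of these, 3 were from control mice and 2 from Vav-Cre Mef2cfl/fl mice, here called *Mef2c*-deficient, in which the Cre recombinase is driven by *Vav* regulatory sequence and deletes *Mef2c*, a transcription factor gene, throughout the haematopoietic system. Per the methods, control mice were Mef2cfl/fl, Mef2cfl/+ or Vav-Cre Mef2cfl/+, and which of these each control array came from is not known here. The arrays come from independently sorted samples, and how many mice entered each is likewise not given in the sources.

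Translesion polymerases copy damaged DNA at which the replicative polymerases stall. RAD18, an E3 ubiquitin ligase, acts with RAD6 (UBE2A or UBE2B) to attach ubiquitin to the sliding clamp PCNA, and the marked clamp recruits the Y-family polymerases eta (*Polh*), kappa (*Polk*), iota (*Poli*) and REV1. Polymerase zeta, of which REV3L is the catalytic subunit and REV7 (*Mad2l2*) an accessory subunit, extends from the inserted base. Theta (*Polq*) and nu (*Poln*) are A-family polymerases that can also copy damaged templates, and theta joins DNA ends by an alternative pathway. In B cells, polymerase eta and REV1 are best known for somatic hypermutation, which follows the pro-B stage.

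Values are deposited RMA intensities, and fold changes are of these values unless named as signal. They appear to be e raised to the log2 signal, since 296 to 422 probe sets per array lay above 65535, the largest number a 16-bit scanner records, so that 2-fold in deposited values would be 1.62-fold in signal. Each log2 fold change is limma's difference between group means of log2 values, and not a ratio of the arithmetic means printed beside it. A probe set was called when limma gave at least a fold of 2 with an unadjusted p no larger than 0.05. The study states a fold of 2 and this p for its pre-B arrays, and both were taken over here for the pro-B arrays. On the scale inferred above, a fold of 2 in deposited values is looser than a fold of 2 in signal. At that stricter fold 2025 probe sets fell and 1089 rose. By the rule in deposited values, and with *Mef2c*-deficient relative to control throughout, 13.5% of all probe sets fell and 10.1% rose. No probe set had a limma adjusted p under 0.05 (0 of 23809, smallest 0.102, against 9 by the methods' t-test), and 7038 (29.6%) had an unadjusted p under 0.05. *Mef2c* itself was measured at 14006, 20854 and 17219.7 on the control arrays and at 7379 and 6219 on the *Mef2c*-deficient arrays (log2 fold change −1.34, standard error 0.28, limma adjusted p = 0.103). Without *Mef2c*-deficient replicates 1 and 2 in turn its log2 fold change was −1.46 and −1.22, and it passed both times. The groups did not overlap and *Mef2c* fell, but the call ended at a fold of 2 in signal and under housekeeping centring (−0.57), array weights (−1.26), cyclic loess (−0.32) and a further quantile normalization (−0.43). No source used here places its probe set inside or outside the deleted exon.

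*Mef2c*-deficient replicate 2 stood apart from the other arrays in several lists of cell type markers. The summed level of 10 measured T and NK cell markers (of 11 listed, none at 0) was 58562 on this array, against 4400.3 to 5230.4 on control arrays and 2244 on *Mef2c*-deficient replicate 1. *Cd3e*, a T-cell receptor subunit, was at 13843 against 232 to 387, and 4 measured plasmacytoid dendritic cell markers (of 8) summed to 74857 against 10274 to 49380.1. The 4 measured erythroid markers (of 7) summed to 4625 against 739 to 872 in controls, with *Mef2c*-deficient replicate 1 at 1502. Neutrophil and monocyte markers were high on every array and varied among controls too. All 10 were measured and summed to 4475798, 4837095 and 2323254 on control replicates 1 to 3. On *Mef2c*-deficient replicates 1 and 2 this sum was 2501042 and 5714503. The 11 measured pro-B markers (of 14) summed to 673514 on replicate 2, against 946994 to 1558064 on control arrays and 1243418 on replicate 1, and none was called between groups. The pro-B markers did not move together on replicate 2. *Cd24a*, the gene of the sort marker CD24, weighed heavily in the sum and was at 152861 there (528504 to 683783 elsewhere). *Ebf1*, a B-lineage transcription factor, was at 3026 on replicate 2 (29295 to 35416 elsewhere). *Cd79a*, a B-cell receptor subunit, was at 250654.3 on it, within the control range of 153021 to 257531. *Ptprc*, which encodes CD45, a protein of leukocytes in general of which B220 is 1 form, was at 9744 there and at 1805 to 2446 elsewhere. *Mef2c*-deficient replicate 1 differed in another measure: 14 probe sets of the bacterial hybridisation controls, which are added to each sample, had a geometric mean of 501897 on it and of 46683 to 145836 on the other arrays. The part of these differences in the results below was not tested, and the result of each of the 9 genes is therefore also given without the array. In such bulk RNA, fewer cells of a type and less RNA per cell cannot be told apart.

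Of the 9 genes, *Polk* and *Rad18* passed as lower without *Mef2c*, 7 did not pass and none rose. Over all probe sets 13.5% fell and 10.1% rose. In the groups of like mean level (defined below) that hold *Polk* and *Rad18*, 9.12% and 38.5% fell. The counts for the 9 genes are to be read beside these shares. All 9 log2 fold changes were below 0, a sign shared by 43.6% of all probe sets, and their median was −0.85 against 0.19 over all probe sets. On all 5 arrays together, 4 genes (*Polk*, *Rev1*, *Rev3l* and *Rad18*) were lower on both *Mef2c*-deficient arrays than on every control array, as were 23.5% of all probe sets. None was higher on both, against 27.5% of all probe sets, and the groups overlapped in the other 5 genes. The plot of values by array shows each gene in turn.

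**Figure D1:**
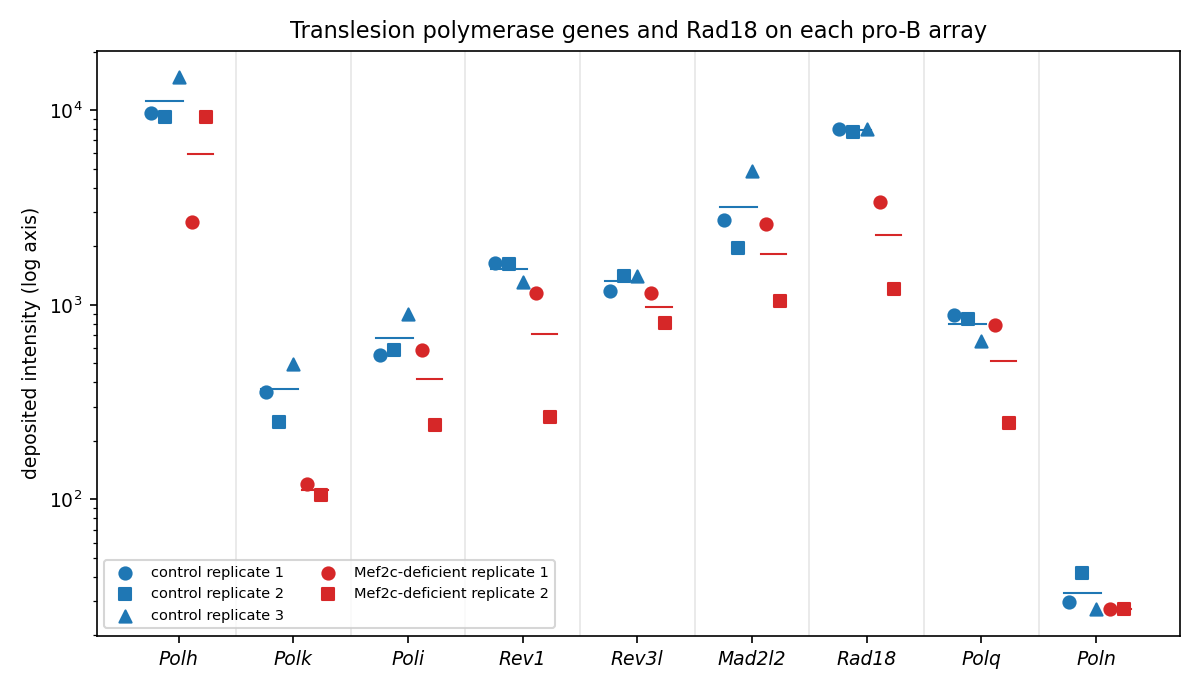
Deposited intensity (vertical log axis) of the 9 genes on each of 5 pro-B arrays. Blue symbols are the 3 control arrays and red symbols the 2 *Mef2c*-deficient arrays. The symbol shape gives the replicate number, which was not taken to pair arrays, and horizontal lines are group means. *Polk* and *Rad18* show the widest gap between groups, and *Mef2c*-deficient replicate 2 (red square) is the lowest array for 7 of 9 genes. Heights of different genes come from different probes and are not comparable.

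*Rad18*, the ligase gene upstream of the polymerases, had nearly equal values on the control arrays, at 8030.0, 7743 and 8034. It was measured at 3372 on *Mef2c*-deficient replicate 1 and at 1209 on replicate 2. Both arrays lay below every control, and the *Mef2c*-deficient arrays differed from each other by 2.79-fold while the controls differed by at most 1.04-fold. The means were 7936 ± 167 (SD, n = 3 arrays) and 2290.3 ± 1529.7 (SD, n = 2 arrays). By limma *Rad18* fell 3.93-fold (log2 fold change −1.97, standard error 0.48, 95% interval −3.22 to −0.73), or 2.58-fold in signal. The unadjusted limma p was 0.00965 and the adjusted p was 0.109. Either *Mef2c*-deficient array alone gave the same call, with log2 fold changes of −2.71 without replicate 1 (limma adjusted p = 0.0467) and −1.23 without replicate 2 (limma adjusted p = 0.0449), where the lone array is assumed to vary like the controls. The call ended after a further quantile normalization of all arrays (−1.08) and after cyclic loess (−0.99). The probe set of *Rad18* (1451928_a_at) is of a type that recognises several transcripts of the same gene.

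*Polk* (probe set 1419501_at), which encodes the polymerase known for bypassing bulky adducts on guanine, was measured at 357, 250.2 and 499 on the control arrays. It was at 119 and 105 on *Mef2c*-deficient replicates 1 and 2. The *Mef2c*-deficient arrays lay close together and below every control, and differed from each other by 1.13-fold. Its means were 369 ± 125 (SD, n = 3 arrays) and 112 ± 9.93 (SD, n = 2 arrays). *Polk* fell 3.16-fold (log2 fold change −1.66, standard error 0.37, 95% interval −2.60 to −0.72), or 2.22-fold in signal. The unadjusted limma p was 0.00635 and the adjusted p was 0.106. Both *Mef2c*-deficient values were below the array medians of 237.9 and 203.4, where background limits how large a fold can be measured. The call held without replicate 1 (−1.75, an unadjusted limma p of 0.0387 and an adjusted p of 0.132) and ended without replicate 2 at nearly the same size (−1.57, an unadjusted limma p of 0.0505 and an adjusted p of 0.126). Further quantile normalization (−1.89) and cyclic loess (−1.96) kept it, and housekeeping centring ended it (−0.89).

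The promoters of both genes that fell are shown with those of *Rev1* and *Polh*, the genes whose *Mef2c*-deficient arrays parted most, in opposite directions. The sequences are from RefSeq (GRCm38.p6), run 5′ to 3′ on the strand of the gene from 250 bases before to 50 bases after a transcript start, and capitals mark matches, on either strand, to any of the motifs searched. These were the E-box CAGGTG, the CCAAT box, the E2F-type letters TTCCCGC, the palindromic NRF1 motif, the GC box GGGCGG and the MEF2 consensus.
*Rad18*, chr6:112696599-112696898, minus strand: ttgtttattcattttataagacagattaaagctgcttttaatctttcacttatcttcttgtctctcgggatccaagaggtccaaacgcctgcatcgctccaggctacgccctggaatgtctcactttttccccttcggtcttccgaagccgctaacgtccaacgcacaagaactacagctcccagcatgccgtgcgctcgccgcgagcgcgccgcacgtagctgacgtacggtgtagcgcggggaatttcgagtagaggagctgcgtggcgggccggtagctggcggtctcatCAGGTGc
*Polk*, chr13:96542530-96542829, minus strand: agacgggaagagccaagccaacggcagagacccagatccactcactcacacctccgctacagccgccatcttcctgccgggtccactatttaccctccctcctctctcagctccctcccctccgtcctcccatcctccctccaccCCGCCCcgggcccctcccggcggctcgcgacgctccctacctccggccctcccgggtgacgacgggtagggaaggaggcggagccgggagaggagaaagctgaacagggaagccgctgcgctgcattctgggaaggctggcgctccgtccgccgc
*Rev1*, chr1:38129617-38129916, minus strand: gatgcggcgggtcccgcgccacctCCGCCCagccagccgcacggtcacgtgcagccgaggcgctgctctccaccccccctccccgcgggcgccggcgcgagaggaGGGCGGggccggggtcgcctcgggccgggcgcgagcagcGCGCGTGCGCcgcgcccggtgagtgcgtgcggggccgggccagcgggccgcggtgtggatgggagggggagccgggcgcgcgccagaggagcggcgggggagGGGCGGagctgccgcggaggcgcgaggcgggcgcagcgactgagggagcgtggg
*Polh*, chr17:46202592-46202891, minus strand: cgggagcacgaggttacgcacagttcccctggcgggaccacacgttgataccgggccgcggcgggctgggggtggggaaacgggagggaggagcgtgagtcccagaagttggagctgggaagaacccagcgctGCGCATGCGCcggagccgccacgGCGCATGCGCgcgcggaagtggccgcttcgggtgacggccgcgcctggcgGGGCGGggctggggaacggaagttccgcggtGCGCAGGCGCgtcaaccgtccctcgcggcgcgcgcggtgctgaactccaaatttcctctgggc

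The *Rad18* window shown held an E-box after its start and was 55.0% G and C. The window of a second annotated start of *Rad18* (chr6:112696621-112696920, 53.3% G and C) held no match. That window shares most of its bases with the one shown and ends before the E-box. The *Polk* window shown held a GC box (68.7% G and C), and that of its second annotated start (chr13:96519138-96519437, 44.3% G and C) held no match. GC boxes recurred in the *Rev1* promoter beside an NRF1 match (83.0% G and C), and *Polh* had 3 NRF1 matches and a GC box (72.0% G and C). No matches overlapped. Promoters on chromosome 18, where *Poli* lies, were left out of the search. The search covered 10 such windows for 7 of the 9 genes, *Poli* and *Rev3l* being without one. Of these 10 windows, 6 held the GC box, as did 35.7% of the 32851 promoters of that length outside chromosome 18, called all promoters below. The E-box was in 2 (20.2% of all promoters), the CCAAT box in 2 (37.4%), the E2F-type letters in 2 (4.6%) and the NRF1 motif in 2 (4.6%). None of the 10 held the MEF2 consensus, which was in 3.19% of all promoters. A match is a run of letters only, and none of these windows was tested for binding here.

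The remaining Y-family genes did not pass. *Rev1* (1422624_at), whose product inserts cytosine opposite lesions and is the platform on which other translesion polymerases assemble, was measured at 1646, 1614 and 1307 on the control arrays, at 1146 on *Mef2c*-deficient replicate 1 and at 265 on replicate 2. Both *Mef2c*-deficient arrays were below every control, but replicate 1 lay near the lowest control and 4.33-fold above replicate 2. The means were 1522 ± 187 (SD, n = 3 arrays) and 705 ± 623 (SD, n = 2 arrays), with a log2 fold change of −1.46 (standard error 0.66, 95% interval −3.16 to 0.24). Its unadjusted limma p was 0.0788 and its adjusted p was 0.207. The size of this difference rested on replicate 2. Without replicate 1 it was −2.52 (limma adjusted p = 0.0467), and without replicate 2 it was −0.40 (limma adjusted p = 0.249). Centring arrays on their medians (−1.69) and array weights (−1.54) brought *Rev1* past the thresholds.

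*Polh*, the gene of the polymerase that copies ultraviolet-induced thymine dimers, showed the reverse array pattern. It was measured at 9623, 9238 and 14744 on the control arrays, at 2671 on *Mef2c*-deficient replicate 1 and at 9238 on replicate 2. Replicate 2 thus equalled control replicate 2 exactly, as RMA can give where probes are summarised by medians, and 42.8% of all probe sets had such a tie. *Polh* was the only 1 of the 9 genes strictly lowest on *Mef2c*-deficient replicate 1. The means were 11202 ± 3074 (SD, n = 3 arrays) and 5955 ± 4644 (SD, n = 2 arrays), and the log2 fold change was −1.14 (standard error 0.60, 95% interval −2.70 to 0.42). Limma gave *Polh* an unadjusted p of 0.119 and an adjusted p of 0.249. It was −2.03 without replicate 2, which passed the thresholds (limma adjusted p = 0.0645), and −0.24 without replicate 1. Its probe set (1447837_x_at) is of a type whose probes may also match other sequences.

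*Poli* (1449098_a_at), encoding an error-prone polymerase related to eta, was measured at 551, 585 and 895 on the control arrays and at 585 and 242 on *Mef2c*-deficient replicates 1 and 2. Replicate 1 equalled control replicate 2, so the groups overlapped. Its means were 677 ± 189.7 (SD, n = 3 arrays) and 414 ± 242 (SD, n = 2 arrays), with a log2 fold change of −0.81 (standard error 0.48, 95% interval −2.06 to 0.43). Limma gave *Poli* an unadjusted p of 0.154 and an adjusted p of 0.276. The change passed the thresholds without replicate 1 (−1.45, limma adjusted p = 0.121) and was −0.18 without replicate 2.

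Neither polymerase zeta gene passed. *Rev3l*, the catalytic subunit gene, was measured at 1181, 1406 and 1402 on the control arrays and at 1151 and 803 on *Mef2c*-deficient replicates 1 and 2. The groups did not overlap, yet replicate 1 lay close to the lowest control. The means were 1329.5 ± 129 (SD, n = 3 arrays) and 977 ± 246 (SD, n = 2 arrays). Its log2 fold change was −0.46 (standard error 0.28, 95% interval −1.18 to 0.25), at an unadjusted limma p of 0.155 and an adjusted p of 0.278. It was −0.72 without replicate 1 and −0.20 without replicate 2. Its sign turned under cyclic loess (0.13), housekeeping centring (0.31) and a further quantile normalization (0.14), and its probe set (1426194_x_at) may also match other sequences. *Mad2l2* (1460348_at), the gene of the accessory subunit REV7, was measured at 2741, 1959 and 4842 on the control arrays and at 2606 and 1044 on *Mef2c*-deficient replicates 1 and 2. Replicate 1 lay within the control range, and the controls alone spanned 2.47-fold. The means were 3181 ± 1491 (SD, n = 3 arrays) and 1825 ± 1104 (SD, n = 2 arrays), with a log2 fold change of −0.85 (standard error 0.58, 95% interval −2.35 to 0.66), which cyclic loess brought to 0.00071. Without replicate 1 it was −1.50 and without replicate 2 it was −0.19. The unadjusted limma p of *Mad2l2* was 0.208 and its adjusted p was 0.324.

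The A-family genes did not pass either. *Polq* (1453551_at), encoding polymerase theta, was measured at 883, 844 and 653 on the control arrays, at 784 on *Mef2c*-deficient replicate 1 and at 248 on replicate 2. Replicate 1 lay within the control range and replicate 2 far below it. Its means were 793 ± 123 (SD, n = 3 arrays) and 516 ± 378 (SD, n = 2 arrays), and its log2 fold change was −0.83 (standard error 0.55, 95% interval −2.24 to 0.57). The unadjusted limma p of *Polq* was 0.187 and its adjusted p was 0.305. The difference became −1.66 without replicate 1, past the thresholds (limma adjusted p = 0.0639), and −0.01 without replicate 2. *Poln* (1446582_at), encoding polymerase nu, was the only 1 of the genes below the array median on all 5 arrays. It was measured at 29.7, 42.0 and 27.3 on the control arrays and at 27.3 on both *Mef2c*-deficient arrays, which equalled control replicate 3. With 3 arrays tied at this value, its log2 fold change of −0.25 (standard error 0.29, 95% interval −0.99 to 0.50) is of a probe set near background, and leaving out either *Mef2c*-deficient array did not move it. Its unadjusted limma p was 0.432 and its adjusted p was 0.533.

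**Figure D2:**
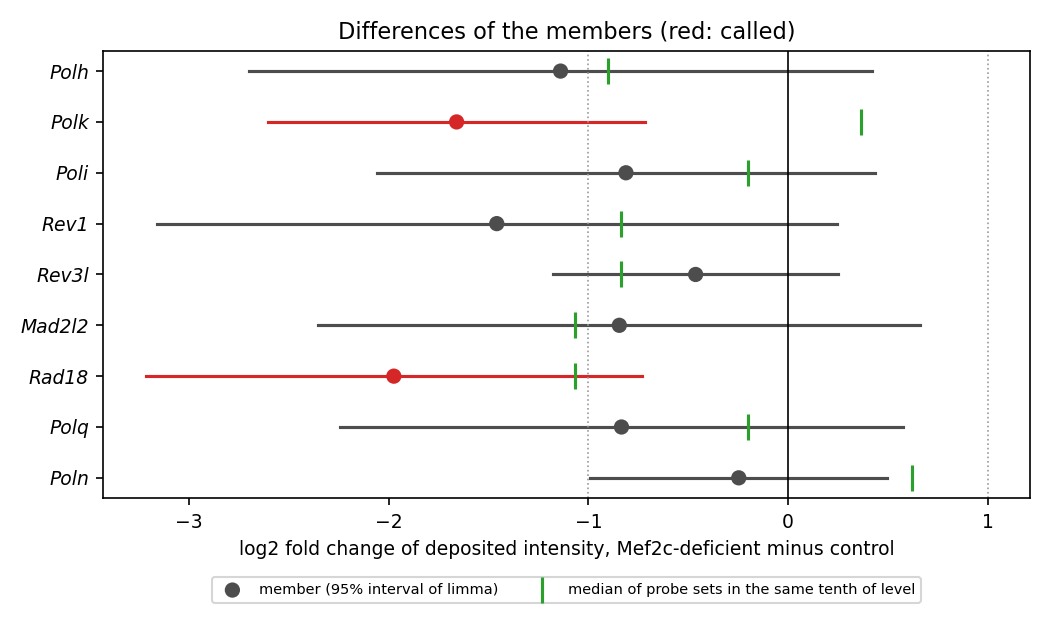
Log2 fold change of deposited intensity, *Mef2c*-deficient minus control (horizontal axis), for each of the 9 genes. Points are limma estimates with 95% intervals, red marks the genes called, dotted lines a fold of 2, and green bars the median of all probe sets of like mean level. The intervals of *Polk* and *Rad18* lie below 0 and the other 7 include 0.

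The *Mef2c*-deficient arrays ordered the 9 genes differently. *Mef2c*-deficient replicate 2 was strictly the lowest of the 5 arrays for 7 genes, against 23.8% of all probe sets, and replicate 1 for 1 gene, against 19.2%. These shares depended on level. In the groups of like mean level (defined below) that hold the 7 genes, replicate 2 was lowest for 19.5% to 50.3% of probe sets. In the group of *Polh*, replicate 1 was lowest for 41.1%. Control replicate 3 was the highest array for 5 genes. In the pairwise comparison of patterns, by the mean absolute difference of log2 deviations over the 5 arrays, *Poli* and *Mad2l2* were the closest pair (0.18) and *Polh* and *Rev1* the farthest apart (1.06). Without *Mef2c*-deficient replicate 1, 5 genes passed as lower (*Polk*, *Poli*, *Rev1*, *Rad18* and *Polq*), beside 15.4% of all probe sets. Without replicate 2, *Polh* and *Rad18* passed, beside 11.5%. *Rad18* was the only 1 of the 9 that passed in all 5 fits that each left out 1 array.

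Differences depended on level over all probe sets tested, so the 9 genes were set against probe sets of like level. All probe sets were split by mean level into 10 groups of equal size, from 1 (dimmest) to 10. Among these groups the median difference was highest in group 2, at 0.62 on the log2 scale, and lowest in group 9, at −1.07. *Polk* was in group 6, where the median was 0.36 and 9.12% fell, and its log2 fold change lay 2.02 below that median. *Rad18* was in group 9, where 38.5% fell, and lay 0.91 below the median. *Rev1* lay 0.62 below the median of group 8 (27.3% fell), and *Polq* and *Poli* lay 0.63 and 0.61 below that of group 7 (16.1% fell). *Polh* lay 0.24 below the median of group 10 (31.8% fell) and *Poln* 0.87 below that of group 2 (0.672% fell). *Rev3l* and *Mad2l2* lay above the medians of groups 8 and 9, by 0.37 and 0.22. In group 9, *Mef2c*-deficient replicate 2 was the lowest array for 50.3% of probe sets, so the array pattern of *Rad18* and *Mad2l2* was that of many bright probe sets.

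**Figure D3:**
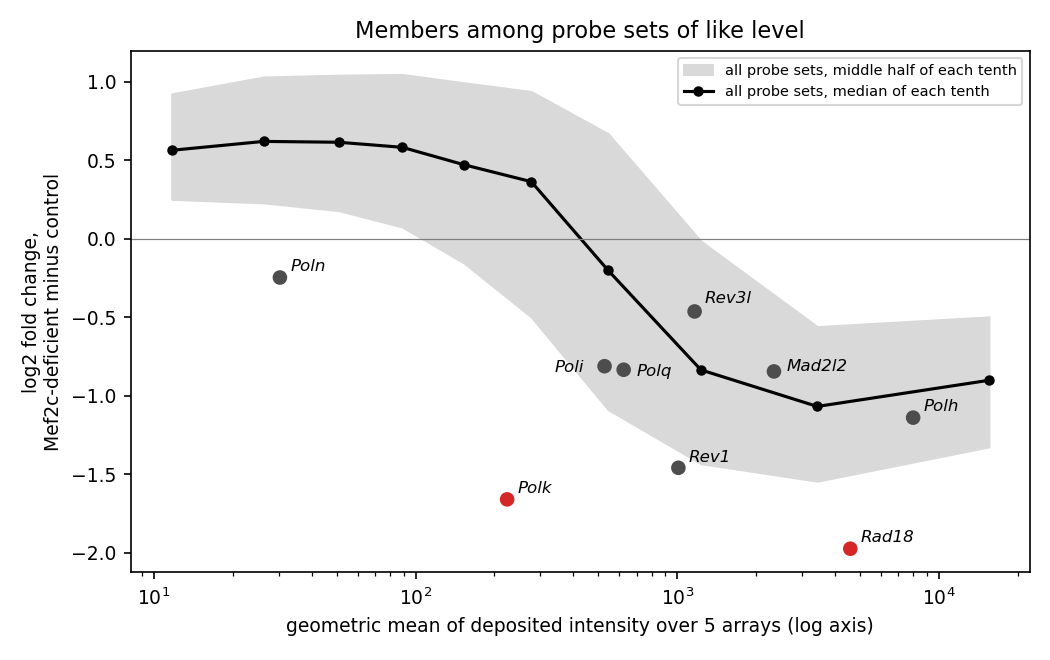
Log2 fold change, *Mef2c*-deficient minus control (vertical axis), against the geometric mean of deposited intensity over 5 arrays (horizontal log axis). The black line and grey band give the median and the middle 50% of all probe sets in each of 10 groups by level, points are the 9 genes, and red marks those called. *Polk*, *Rad18*, *Poln* and *Rev1* lie below the band or at its lower edge, and the medians run from above 0 in dim groups to below 0 in bright ones.

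The calls depended on how the arrays were scaled. Further quantile normalization and cyclic loess, under which 7.69% of all probe sets fell, left *Polk* as the only gene called, and housekeeping centring, which raised the median of all probe sets from 0.19 to 0.96, left *Rad18* as the only one. Both had negative log2 fold changes under every scaling, from −1.96 to −0.89 for *Polk* and from −2.21 to −0.99 for *Rad18*. *Polh*, *Poli*, *Rev1* and *Polq* also kept their sign, and *Rev3l*, *Mad2l2* and *Poln* did not. At a fold of 2 in signal and with the methods' t-test, *Polk* and *Rad18* were again the genes called.

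**Figure D4:**
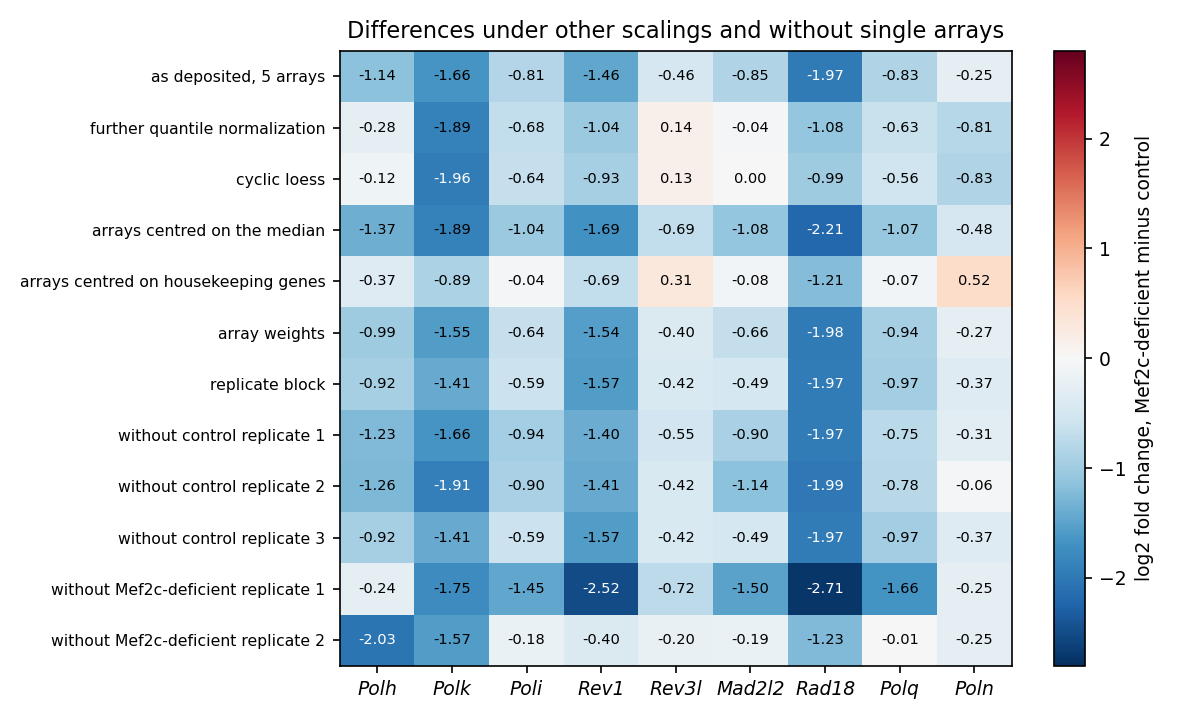
Log2 fold changes, *Mef2c*-deficient minus control, of the 9 genes (columns) as deposited, under other scalings and weights, with a replicate block and without single arrays (rows). Blue is lower and red higher in *Mef2c*-deficient pro-B cells. *Rad18* and *Polk* are negative in each row, *Rev1*, *Poli* and *Polq* are most negative without *Mef2c*-deficient replicate 1, and *Polh* without replicate 2.

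The genes with the pattern most like each of the 9, over the 5 arrays and by the same distance, differed from gene to gene. *Rad18* was nearest to *Adk* (0.0641) and *Nap1l4* (0.0738), and *Polk* to *Pip4k2b* (0.0724) and *Kat14* (0.0763). For *Rev1* they were *Nme4* (0.0551) and *Phtf1* (0.0667), for *Polh* *Vapb* (0.0403) and *Cnep1r1* (0.0407), and for *Poli* *Csad* (0.0276) and *Pogk* (0.0365). *Rev3l* was nearest to *Ssh3* (0.0284) and *Cox7a2l* (0.0316), *Mad2l2* to *4930515G01Rik* (0.0632) and *Zfp408* (0.0642), *Polq* to *Cpsf4* (0.0553) and *Fbxo5* (0.0664), and *Poln* to *Gm13398* (0.0337) and *Cox7a2* (0.0375). With 5 arrays, many probe sets come close to any pattern.

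Genes that act with the translesion polymerases were read from lists. Of 15 measured genes of PCNA ubiquitylation and damage tolerance (of 16), 7 fell, 1 rose and 7 did not pass, with a median log2 fold change of −1.20. Of these 15 genes, 11 were in level groups 9 and 10, where 38.5% and 31.8% of probe sets fell, and the list's median difference from its genes' level groups was −0.13. The count is thus to be read against those shares and not against the 13.5% of all probe sets tested. *Dtl*, an adaptor of a ubiquitin ligase that acts on PCNA-bound proteins, was measured at 1209, 1469.6 and 533 on control and 279 and 48.5 on *Mef2c*-deficient arrays (−3.08), and *Zranb3*, a translocase bound by ubiquitylated PCNA, at 1011, 643 and 835 against 257 and 68.3 (−2.62). *Ube2v1*, a ubiquitin-conjugating enzyme variant, fell by 1.996 and *Rchy1*, a ubiquitin ligase, by 1.51 on the log2 scale. *Shprh*, a ligase that extends ubiquitin chains on PCNA, was the gene that rose (1.33), and is named after its values were seen. Without *Mef2c*-deficient replicates 1 and 2 in turn, *Dtl* was at −4.34 and −1.81, *Zranb3* at −3.58 and −1.67 and *Shprh* at 1.995 and 0.66. The partners of RAD18 did not pass. *Pcna* had a log2 fold change of −0.38, *Ube2a* −0.88 and *Ube2b* −1.30, and *Usp1*, whose product removes ubiquitin from PCNA, had −0.998. *Ube2a*, *Ube2b* and *Usp1* passed without *Mef2c*-deficient replicate 1 (−1.42, −2.17 and −1.70). *Pcna* turned sign under cyclic loess (0.31) and housekeeping centring (0.39), and *Ube2a* under cyclic loess (0.055). In fits without single arrays 4 to 10 genes of the list fell, with 4 when either of the first 2 control replicates or *Mef2c*-deficient replicate 2 was left out, and the gene that rose passed in none of these fits but the one without *Mef2c*-deficient replicate 1.

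Of 19 measured genes of other DNA polymerases and primases (of 19), 9 fell, none rose and 10 did not pass, with a median of −1.30. Of these, 15 were in level groups 9 and 10, where 38.5% and 31.8% of probe sets fell, and the median difference from the level groups was −0.40. *Pold2*, a subunit gene of the replicative polymerase delta, was measured at 7427, 7756 and 5784 against 3287 and 889.9 (−2.02), and *Pold3*, whose product also serves polymerase zeta, at 15243, 10759 and 10759 against 6076 and 3737 (−1.34). *Poll*, a gap-filling polymerase gene, fell by 1.65, and *Pole2* and *Pole*, of the replicative polymerase epsilon, by 1.61 and 1.60 on the log2 scale. In this list 14 genes fell without *Mef2c*-deficient replicate 1, and *Pold2* was at −2.96 without that replicate and −1.08 without replicate 2, while 1 gene fell after further quantile normalization and 1 after cyclic loess.

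The counts in the following lists are likewise to be read beside the shares that fell in level groups 9 and 10, 38.5% and 31.8%. Of 7 measured partners of alternative end joining (of 8), 2 fell, none rose and 5 did not pass (median −0.998, and −0.096 from their level groups, 5 genes being in groups 9 and 10). They were *Fen1*, a flap endonuclease (−2.42), and *Lig1*, a DNA ligase (−1.84). Of 3 measured partners of somatic hypermutation (of 5), all 3 fell (median −1.94, and −1.04 from their level groups, all 3 in groups 9 and 10), namely *Exo1*, an exonuclease (−2.42), *Ung*, which excises uracil (−1.94), and *Msh6*, a mismatch-binding protein gene (−1.57). Of 8 measured proliferation genes (of 10), 3 fell (*Mcm5*, *Mcm2* and *Birc5*) and none rose (median −1.08, and −0.34 from their level groups), and of 9 measured housekeeping genes (of 12), 5 fell and none rose (median −1.03, and −0.13 from their level groups). The summed level of the 8 proliferation genes was 238437 to 278280.0 on the control arrays, 184585 on *Mef2c*-deficient replicate 1 and 69480 on replicate 2. *Rad18*, *Rev1*, *Polq*, *Poli*, *Mad2l2*, *Rev3l* and *Polk* had the same order between the *Mef2c*-deficient arrays, *Polh* the reverse, and *Poln* was tied. The part of proliferation in these differences was not tested. Calls in these lists were sensitive to single arrays. Without *Mef2c*-deficient replicate 1 the list medians ran from −2.49 (hypermutation partners) to −0.94 (housekeeping genes), and without replicate 2 from −1.57 (hypermutation partners) to −0.46 (proliferation genes). Without *Mef2c*-deficient replicate 2, *Dtl* (−1.81), *Rchy1* (−0.80), *Lig1* (−0.75), *Msh6* (−0.65), *Mcm5* (−0.90), *Mcm2* (−0.91), *Birc5* (−0.51) and *Pold3* (−0.99) did not pass. Without 1 or more of the control arrays *Dtl*, *Rchy1*, *Pold2*, *Lig1*, *Msh6*, *Mcm5* and *Birc5* did not pass at nearly the same size.

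**Figure D5:**
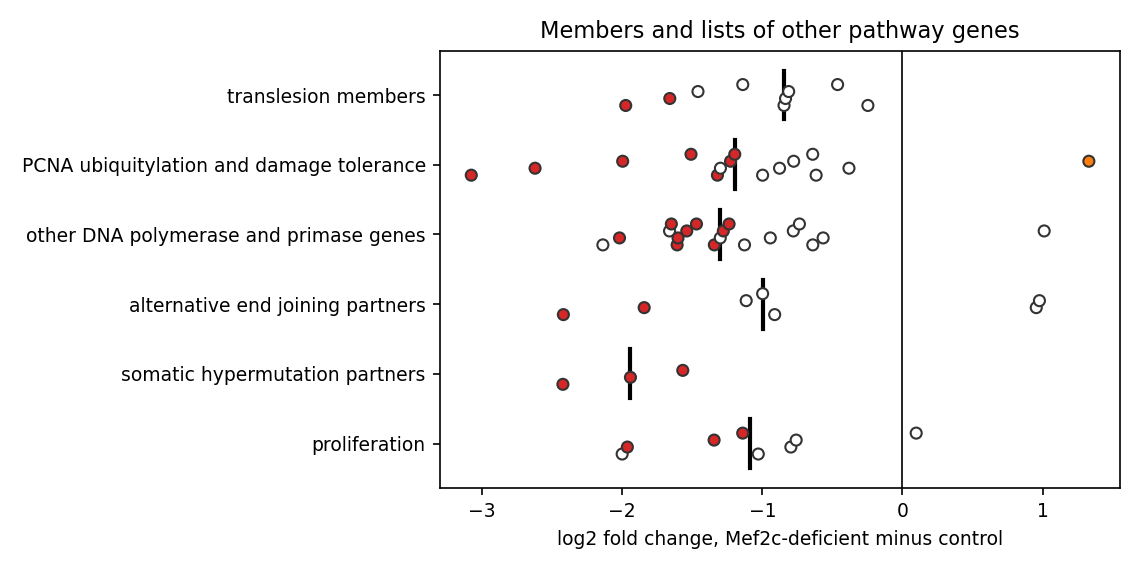
Log2 fold change, *Mef2c*-deficient minus control (horizontal axis), of the 9 genes and of each measured gene in 5 lists of related genes (rows). Red points fell, the orange point rose, open points did not pass, and black bars are medians. Medians of all rows lie between −1.94 and −0.85, while the median of all probe sets was 0.19 and the medians of level groups 9 and 10, which hold most of the listed genes, were −1.07 and −0.90. Taken from their genes' level groups, the medians were −0.62 for the 9 genes and −1.04 to −0.096 for the 5 lists.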

How the data were processed

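The 5 arrays (3 control, 2 *Mef2c*-deficient) were grouped by the titles in the labels. The authors made the deposited intensity values by RMA and analysed them with limma, whose versions are not given in the sources used here, and the present/absent filter of their methods could not be repeated. The single table holds 23835 rows, of which 26 Affymetrix control probe sets were left out, and 23809 were tested. Of these, 17621 carry 1 gene symbol in the platform annotation, 516 several and 5672 none. Log2 of the deposited values, with no pseudocount, was fitted with limma 3.58.1 (R 4.3.3; lmFit and eBayes, all 5 arrays, no covariates), with Benjamini-Hochberg adjustment over all probe sets. Because RMA intensities of a gene's probes are summarised by median polish, arrays can share an exact value (tolerance 1e-09 of it). The number of arrays limits the precision, and p-values measure the spread between these samples only. The fit was tested on simulated data.

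The genes, lists and named genes were chosen with earlier results of these data known. Named were the 9 genes, *Mef2c*, the called genes of each list (up to the 4 with the largest absolute log2 fold change), *Pcna*, *Ube2a*, *Ube2b*, *Usp1*, *Pold2* and *Pold3*, and for each of the 9 the 2 genes of most similar pattern. A gene with several probe sets was counted by the brightest. Neutrophil and monocyte (10 of 10 measured, 0 called), erythroid (4 of 7, 1 rose) and mature B and plasma cell markers (6 of 7, 1 fell) were read as well. The thresholds are those the study states for its pre-B arrays, with the fold taken here in deposited values. Alternatives were further quantile normalization, cyclic loess, median and housekeeping centring (9 of 12 genes measured), leaving out dim probe sets, 1 probe set a gene, a variance trend, array weights, a fold of 2 in signal, the methods' t-test, a replicate block and leaving out each array.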

Additional observations from a re-analysis of the deposited data

How the results depend on the processing

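The count of translesion genes that fell was 1 under housekeeping centring, cyclic loess or quantile normalization, and 2 to 5 without single arrays. Over all probe sets 1832 fell after quantile normalization, 1832 after cyclic loess, 767 with housekeeping centring, 2025 at a fold of 2 in signal and 1934 by the methods' t-test (2163 to 3661 without single arrays). Those that rose numbered 1591 after cyclic loess, 1558 with median centring, 10619 with housekeeping centring, 576 with dim probe sets left out, 1460 with array weights, 1089 at a fold of 2 in signal, 1368 by the methods' t-test and 1022 with the replicate block (1404 to 4389 without single arrays). With housekeeping centring 9004 probe sets had an adjusted p under 0.05, without *Mef2c*-deficient replicate 1 it was 1386 and without replicate 2 it was 2524. Calls that fell made up 57.2% of all calls as deposited, 75.1% with median centring, 6.74% with housekeeping centring and 83.6% with dim probe sets left out.

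Genes of PCNA ubiquitylation that fell were 4 after quantile normalization, 3 after cyclic loess, 11 with median centring, 3 with housekeeping centring, 4 at a fold of 2 in signal, 4 by the methods' t-test and 3 with the replicate block (4 to 10 without single arrays), and 0 rose with quantile normalization, cyclic loess, median centring, array weights, the fold in signal or the methods' t-test (0 to 1 without single arrays). Of other polymerase genes 1 fell and 1 rose after quantile normalization and after cyclic loess, while housekeeping centring gave 0 and 1 (6 to 14 fell and 0 to 1 rose without single arrays). Of end joining partners 1 fell after quantile normalization, cyclic loess, housekeeping centring, the methods' t-test or the replicate block and 4 with median centring (1 to 2 without single arrays), and 1 rose after quantile normalization and 2 with housekeeping centring (0 to 1). Of hypermutation partners 1 fell after cyclic loess. Proliferation genes that fell were 0 after quantile normalization, cyclic loess, housekeeping centring or the replicate block, 5 with median centring, 1 at a fold of 2 in signal and 1 by the methods' t-test (0 to 7). Housekeeping genes that fell were 0 after quantile normalization, cyclic loess or housekeeping centring, 2 at a fold of 2 in signal and 3 with the replicate block (2 to 4), and 2 rose with housekeeping centring.

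The sign turned for *Rev3l* (0.14 after quantile normalization, 0.13 after cyclic loess, 0.31 with housekeeping centring), *Mad2l2* (0.00071 after cyclic loess), *Poln* (0.52 with housekeeping centring), *Pcna* (0.31 after cyclic loess, 0.39 with housekeeping centring) and *Ube2a* (0.055 after cyclic loess). The cause was not tested. With the replicate block, which leaves control replicate 3 without a partner, 2 translesion genes fell, *Polk* at −1.41 and *Rad18* at −1.97. Deviations of arrays with the same number correlated at 0.105 and −0.031. With only 2 *Mef2c*-deficient arrays, whose deviations from their mean mirror each other, these values cannot decide whether the numbers pair the arrays. Probe sets near background, such as that of *Poln*, allow no statement on absence of change.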
